A study of Mus musculus with 9 samples.

Results

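Genes that act when an ovarian follicle ruptures were followed in mouse ovary: the progesterone receptor gene Pgr, the prostaglandin synthase gene Ptgs2, the cumulus matrix genes Has2, Ptx3, Tnfaip6, Vcan and Cd44, and the genes Edn2, Sult1e1 and Snap25. They were chosen by symbol, with earlier results of these data known, and no filter on level was used. All 10 of the 10 symbols were found among the 22544 entries of the deposited table. Messenger RNA was sequenced in 9 libraries, with read pairs, 3 in each of 3 groups. The libraries labelled HBOT came from the group given CTX together with hyperbaric oxygen (HBOT), those labelled CTX from the group given CTX alone, and those labelled NC, whose labels name neither agent, are taken as the controls. CTX is the usual abbreviation of cyclophosphamide, an alkylating drug. Strain, age, dose, stage of the oestrous cycle and any hormone given are not stated in the sources used here.

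After the surge of luteinizing hormone, granulosa cells of the mature follicle switch on the progesterone receptor and the prostaglandin synthase PTGS2. Cumulus cells then make hyaluronan, which is cross-linked into a gel around the oocyte, and the follicle wall is remodelled and opens. In mice that lack Pgr or Ptgs2, ovulation fails or is much reduced, and loss of Ptx3 or Tnfaip6 leaves an unstable cumulus matrix. Most of these RNAs are made for a matter of hours.

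In 9 of the 10 genes the highest library was HBOT replicate 2, and Edn2 was the exception. In 6 genes (Pgr, Ptgs2, Has2, Tnfaip6, Sult1e1 and Snap25) HBOT replicate 2 was at least 10 times as high as the highest of the other 8 libraries. Over the 19801 entries with a value above 0 in any library, 18.5% were highest in HBOT replicate 2, 33.1% were lowest in it and 1.16% passed that 10-fold mark. These counts describe 1 library and carry no test, for genes that were not chosen blind to these data. Levels are FPKM, fragments scaled by transcript length and library size, which are per length and so can be set side by side between genes.

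**Figure D1:**
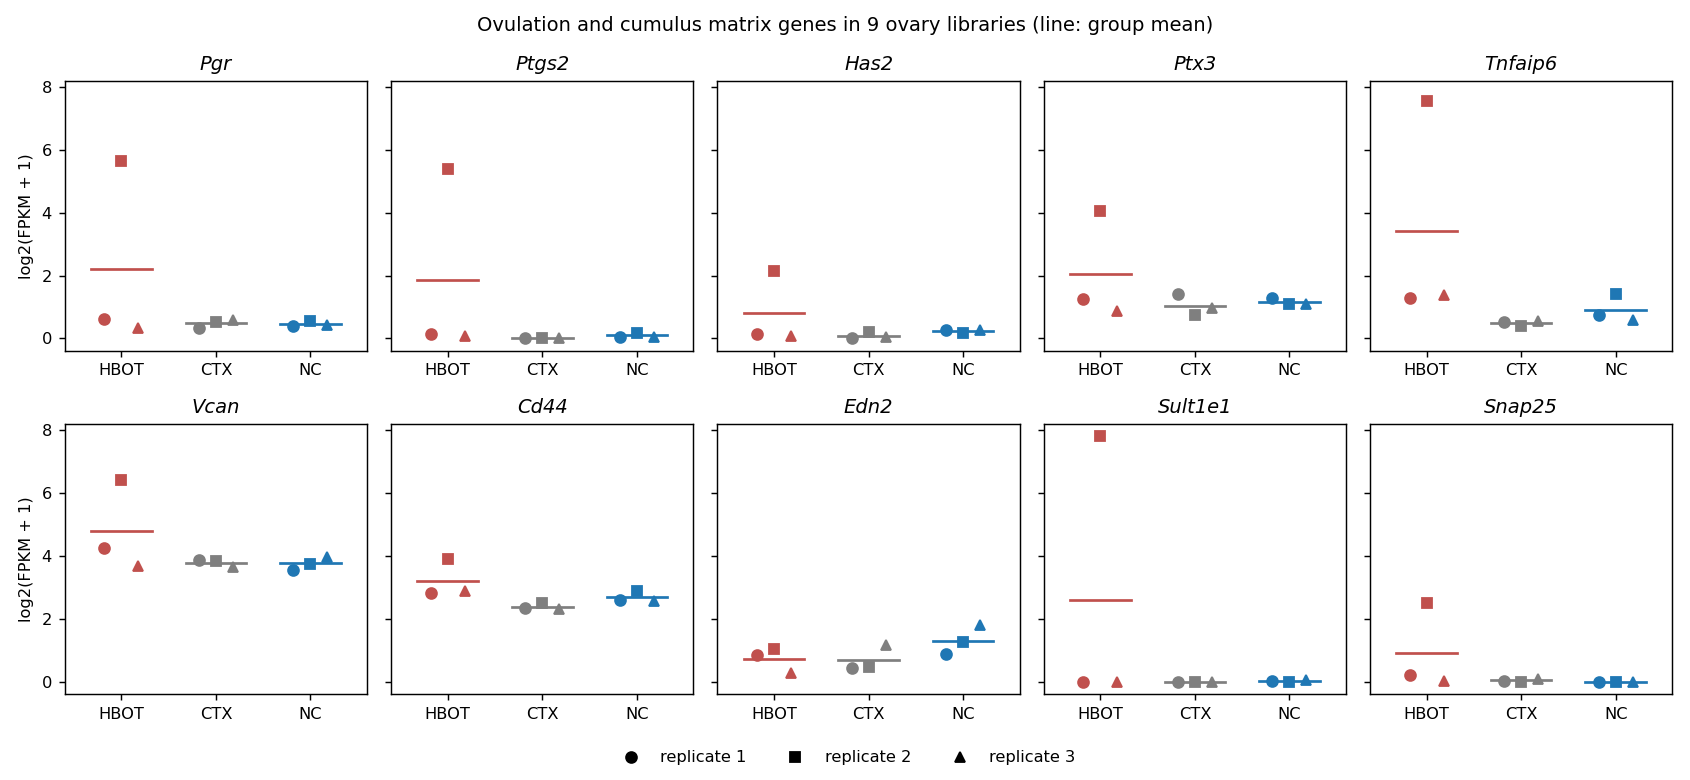
Level of each of the 10 genes as log2(FPKM + 1), with HBOT, CTX and NC libraries from left to right, 1 symbol per replicate and a line at the group mean (n = 3). The square of HBOT replicate 2 stands above every other point in 9 panels, while in Edn2 it lies among them.

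As examples, the 250 bases before the start of Pgr, Ptgs2, Tnfaip6 and Edn2 are printed. They are from RefSeq promoters of build GRCm38.p6, 5′ to 3′ on the strand of the gene. Of the 10 genes 8 were matched in that table, and Has2 and Snap25 are named only. The windows are chr9:8899583-8899832 (plus strand) for Pgr, chr1:150099781-150100030 (plus strand) for Ptgs2, chr2:52037863-52038112 (plus strand) for Tnfaip6 and chr4:120160956-120161205 (plus strand) for Edn2. Capitals mark matches on either strand to the letters searched.
Pgr: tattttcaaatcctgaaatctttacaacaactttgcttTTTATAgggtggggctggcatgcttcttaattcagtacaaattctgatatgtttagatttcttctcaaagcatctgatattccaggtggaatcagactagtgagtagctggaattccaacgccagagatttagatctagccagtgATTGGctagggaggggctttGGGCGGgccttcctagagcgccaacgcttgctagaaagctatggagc
Ptgs2: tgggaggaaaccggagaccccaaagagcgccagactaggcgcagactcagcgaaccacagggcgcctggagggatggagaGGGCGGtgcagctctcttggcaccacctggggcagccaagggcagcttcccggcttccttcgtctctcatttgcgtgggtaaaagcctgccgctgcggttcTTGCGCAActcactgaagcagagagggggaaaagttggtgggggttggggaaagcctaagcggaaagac
Tnfaip6: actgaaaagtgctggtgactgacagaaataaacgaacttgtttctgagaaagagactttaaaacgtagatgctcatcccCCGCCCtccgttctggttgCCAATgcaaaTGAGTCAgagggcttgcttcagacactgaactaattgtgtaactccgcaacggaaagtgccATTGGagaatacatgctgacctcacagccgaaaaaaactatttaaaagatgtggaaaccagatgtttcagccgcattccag
Edn2: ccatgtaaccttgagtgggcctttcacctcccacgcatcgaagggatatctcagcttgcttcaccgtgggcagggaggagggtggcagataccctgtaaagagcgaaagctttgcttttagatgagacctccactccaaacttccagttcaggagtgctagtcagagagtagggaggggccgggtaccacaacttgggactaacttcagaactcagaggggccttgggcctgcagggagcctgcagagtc

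The GC box GGGCGG was found before Pgr, Ptgs2, Tnfaip6 and Vcan, 4 of the 8 matched genes, and before 32.7% of the 32851 promoters of the table. CCAAT stood before Pgr, Tnfaip6 and Vcan, and before 33.8% of all promoters. TGANTCA, the letters of the AP-1 factors, was found before Tnfaip6 only, against 6.75% of all promoters. TATAAA was found before Pgr only, on the opposite strand and far from the start, against 12.4% of all promoters. The letters TTGCGCAA of the C/EBP factors, added after the sequences had been seen, stood before Ptgs2 and before 0.164% of all promoters. TGACGTCA (1.55% of all promoters), the shorter TGACG, which lies within it (17.8%), CACGTG (6.02%) and the full progesterone response element, allowing any base at its variable positions (0.387%), were found before 0 of the 8 genes in this window. No letters searched were found before Ptx3, Cd44, Edn2 or Sult1e1. Of these, Ptx3, Cd44 and Sult1e1 were highest in HBOT replicate 2 and Edn2 was not. The windows depend on where the start of each gene is placed, and bases on either side of them were not searched. Letters not found here may thus stand elsewhere in the control regions of these genes.

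Pgr (ENSMUSG00000031870) encodes the nuclear receptor through which progesterone acts in the granulosa cells of a follicle about to rupture. It stood at 0.545, 49.1 and 0.254 FPKM in HBOT replicates 1 to 3, at 0.266, 0.430 and 0.502 FPKM in CTX, and at 0.313, 0.462 and 0.337 FPKM in NC. The other 8 libraries thus spanned 0.254 to 0.545 FPKM in all 3 groups, and HBOT replicate 2 was 90.1 times the highest of them. The difference of mean log2(FPKM + 1) between HBOT and CTX was 1.72 with all 9 libraries and -0.0040 without HBOT replicate 2.

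Ptgs2 (ENSMUSG00000032487) encodes the inducible cyclooxygenase that starts prostaglandin synthesis in the follicle. Its levels were 0.106, 41.3 and 0.0499 FPKM in HBOT, 0.0129, 0 and 0 FPKM in CTX, and 0.0392, 0.137 and 0.0293 FPKM in NC. All 3 HBOT libraries lay above the 3 CTX libraries, and all 3 CTX libraries below the 3 NC libraries, but 8 of the 9 values are under 1 FPKM and 2 are listed at 0. The exact permutation p was 0.1 in both comparisons, the smallest that 3 against 3 libraries allow (two-sided).

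Sult1e1 (ENSMUSG00000029272) encodes the oestrogen sulfotransferase, which inactivates oestrogens. It was at 222.7 FPKM in HBOT replicate 2, the highest of the 10 genes and rank 227 among all entries of that library. It was listed at 0 in the other HBOT libraries, in all 3 CTX libraries and in NC replicate 2, and the NC replicates 1 and 3 had 0.0184 and 0.0327 FPKM. Snap25 (ENSMUSG00000027273), a SNARE protein of regulated secretion that mouse granulosa cells make around ovulation, was at 0.160, 4.68 and 0.0151 FPKM in HBOT, at 0.0207, 0 and 0.0694 FPKM in CTX, and listed at 0 in all 3 NC libraries. Snap25 was the 1 gene of the 10 whose 3 HBOT libraries all lay above the 3 NC libraries, and 10% of entries did so. Only 1 of its values, that of HBOT replicate 2, reached 1 FPKM.

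The cumulus matrix is built by the hyaluronan synthase HAS2 and stabilised by PTX3, a pentraxin, and TNFAIP6, which moves the heavy chains of inter-alpha-trypsin inhibitor onto hyaluronan. Has2 (ENSMUSG00000022367) was at 0.113, 3.43 and 0.0626 FPKM in HBOT, at 0.0208, 0.146 and 0.0319 FPKM in CTX, and at 0.201, 0.130 and 0.199 FPKM in NC. Its level in HBOT replicate 2 was thus the lowest of the 10 genes there after Edn2, although it was 17.0 times the highest of the other libraries. In HBOT replicates 1 and 3 it was below all 3 NC libraries.

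Ptx3 (ENSMUSG00000027832) was at 1.40, 15.6 and 0.823 FPKM in HBOT, at 1.66, 0.684 and 0.969 FPKM in CTX, and at 1.43, 1.119 and 1.125 FPKM in NC. The groups overlapped in each of the 3 comparisons, and HBOT replicate 2 was 9.39 times the highest of the other libraries, which was CTX replicate 1. The span of Ptx3 overlaps that of Veph1 on the opposite strand. Without strand in the counting, reads may be mixed where exons of both overlap, which was not checked. The HBOT minus NC difference of 0.91 (SE 0.70, adjusted p = 0.595 by limma) was -0.087 without HBOT replicate 2.

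Tnfaip6 (ENSMUSG00000053475) was at 1.45, 188.2 and 1.60 FPKM in HBOT, at 0.454, 0.316 and 0.466 FPKM in CTX, and at 0.671, 1.65 and 0.499 FPKM in NC. It was the matrix gene with the highest level in HBOT replicate 2, rank 284 of all entries. HBOT replicates 1 and 3 also stood above the 3 CTX libraries, and NC replicate 2, at 1.65 FPKM, was as high as they were.

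Vcan (ENSMUSG00000021614) encodes versican, a proteoglycan that binds hyaluronan in the follicle wall and the cumulus. It was expressed in every library, at 17.98, 84.9 and 11.9 FPKM in HBOT, at 13.6, 13.4 and 11.4 FPKM in CTX, and at 10.7, 12.5 and 14.8 FPKM in NC. Outside HBOT replicate 2 the 3 groups overlapped within 10.7 to 17.98 FPKM. CTX and NC averaged 12.8 ± 1.21 and 12.7 ± 2.07 FPKM (mean ± SD, n = 3 each).

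Cd44 (ENSMUSG00000005087), the hyaluronan receptor of cumulus cells and of many other cells including leukocytes, was at 6.11, 13.8 and 6.46 FPKM in HBOT, at 4.07, 4.68 and 3.96 FPKM in CTX, and at 5.07, 6.35 and 4.96 FPKM in NC. HBOT replicate 2 was 2.14 times the highest of the other libraries, the smallest ratio among the 9 genes that were highest there. The CTX libraries were the lowest 3 of the 9, with HBOT replicates 1 and 3 near NC replicate 2.

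Edn2 (ENSMUSG00000028635) encodes endothelin 2, a peptide that contracts smooth muscle and that rodent granulosa cells make briefly around rupture. It was at 0.817, 1.05 and 0.218 FPKM in HBOT, at 0.350, 0.380 and 1.27 FPKM in CTX, and at 0.822, 1.37 and 2.46 FPKM in NC. HBOT replicate 2 was the fourth highest of the 9 libraries, at 0.426 times the highest of the other 8. HBOT minus NC was -0.57 (SE 0.32, adjusted p = 0.489) and CTX minus NC was -0.61 (SE 0.32, adjusted p = 0.697), both by limma on log2(FPKM + 1), with overlapping groups. Without NC replicate 3 these differences were -0.33 and -0.36, and without HBOT replicate 3 the first was -0.35.

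**Figure D2:**
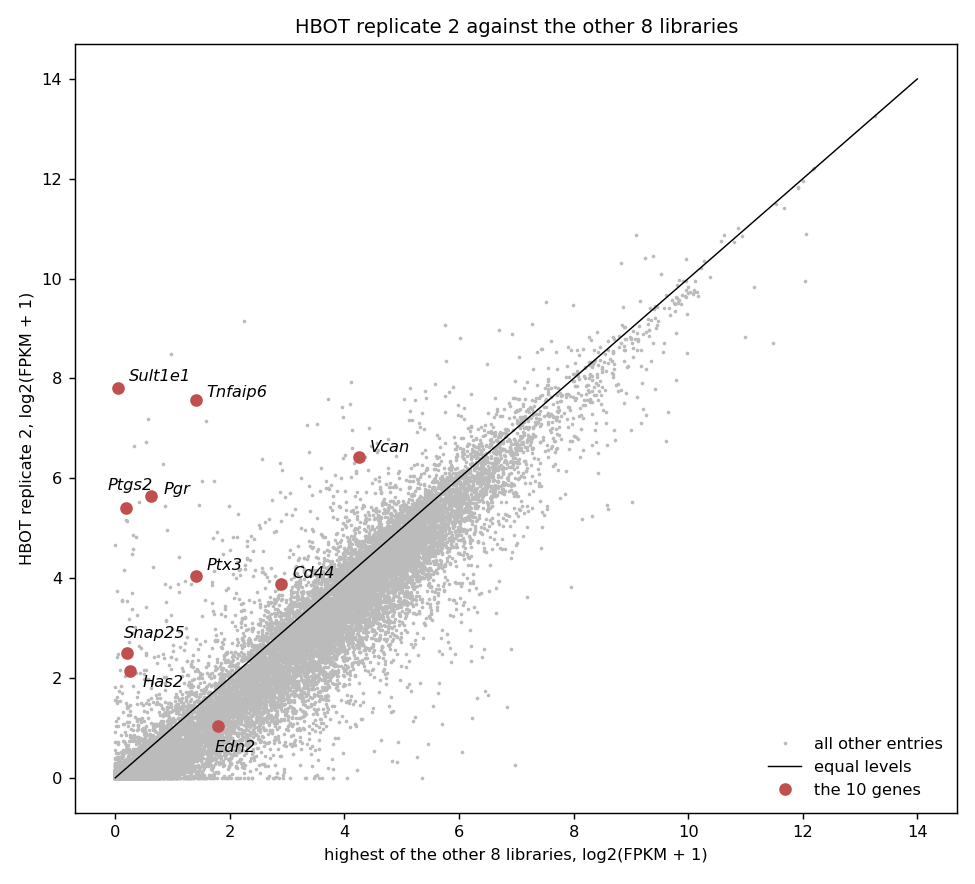
HBOT replicate 2 (vertical axis) against the highest of the other 8 libraries (horizontal axis), both as log2(FPKM + 1), for all entries in grey and the 10 genes in red. Sult1e1, Tnfaip6, Ptgs2 and Pgr lie far above the line of equal levels, Cd44 close to it and Edn2 below it.

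Within HBOT replicate 2 the 10 genes ran from 1.05 FPKM (Edn2) through 3.43 (Has2), 4.68 (Snap25), 13.8 (Cd44), 15.6 (Ptx3), 41.3 (Ptgs2), 49.1 (Pgr), 84.9 (Vcan) and 188.2 (Tnfaip6) to 222.7 FPKM (Sult1e1). There is no replicate of this library, so neighbours in that order, such as Ptgs2 and Pgr, cannot be told apart by a spread. In the other 8 libraries Vcan (median 12.99 FPKM) and Cd44 (median 5.01 FPKM) were the genes above 1 FPKM throughout. Pgr, Ptgs2, Has2, Sult1e1 and Snap25 stayed under 1 FPKM in all of those 8, so that HBOT replicates 1 and 3 did not share the levels of HBOT replicate 2.

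HBOT replicate 2 stood inside the range of the other 8 libraries for the summed level of 11 of 12 marker lists and above it for oocytes (222.6 FPKM, against 78.0 to 198.4 FPKM). A sum of FPKM is weighted to the highest gene of its list. The 7 granulosa and cumulus markers summed to 2185 FPKM in HBOT replicate 2, against 1303 to 2404 FPKM in the others. Inha alone was at 1702.6 FPKM in HBOT replicate 2, most of that sum, and at most 1771.2 FPKM elsewhere. Of the 7 markers, 3 were at their lowest in HBOT replicate 2 and 0 at their highest. Among all genes tested 44.1% were lowest and 19.5% highest in that library. Of the 5 oocyte markers, 4 were at their highest there and 0 at their lowest. For leukocytes, which also express Ptgs2, Ptx3, Tnfaip6 and Cd44, the 5 neutrophil markers summed to 36.3, 26.6 and 11.99 FPKM in HBOT, 7.10, 8.48 and 38.5 FPKM in CTX, and 1.40, 2.08 and 0.880 FPKM in NC, with S100a8 and Ngp at 0 in at least 1 library. The 5 macrophage markers summed to 93.2, 90.5 and 135.5 FPKM in HBOT, 92.5, 123.5 and 88.9 FPKM in CTX, and 72.0, 80.3 and 73.8 FPKM in NC. The 5 oviduct markers summed to 5.34 FPKM in HBOT replicate 2, against 4.39 to 12.3 FPKM in the others, with Foxj1 and Pax8 at 0 in at least 1 library. The part of these cells in the levels of the 10 genes was not tested, and in whole ovary fewer cells of a type and less RNA per cell cannot be told apart.

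Group comparisons were made on log2(FPKM + 1) with limma. Of the 10 genes 5 passed a filter of at least 1 FPKM in at least 3 libraries and were tested with it (Ptx3, Tnfaip6, Vcan, Cd44 and Edn2). Fold changes on this scale understate the change of low genes, and the adjustment was made over all 13338 genes tested. Whether each library came from its own animal is not stated, and the p-values cover no more than the variation among these libraries, which may be technical. For the 5 genes below the filter, exact two-sided permutation tests gave p = 0.5 (Pgr), 0.4 (Has2), 1.0 (Sult1e1) and 0.3 (Snap25) for HBOT against CTX, and 0.5 (Pgr), 0.5 (Ptgs2), 1.0 (Has2), 1.0 (Sult1e1) and 0.1 (Snap25) for HBOT against NC.

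HBOT against CTX sets drug plus oxygen against the drug alone. Of the tested genes, Tnfaip6 and Cd44 had groups that did not overlap. Cd44 averaged 8.80 ± 4.36 FPKM in HBOT and 4.24 ± 0.389 FPKM in CTX (SD, n = 3 each), a difference of 0.82 (SE 0.26, adjusted p = 0.710 by limma). Tnfaip6 differed by 2.92 (SE 1.42, adjusted p = 0.710 by limma), a size set by HBOT replicate 2. Tnfaip6 reached 1 FPKM in the 3 HBOT libraries and NC replicate 2 only, so without the HBOT libraries it would not have been tested. Its differences of HBOT from CTX and from NC thus support no difference by themselves, with or without HBOT replicate 2. Ptx3 (1.01, SE 0.70), Vcan (1.003, SE 0.58) and Edn2 (0.03, SE 0.32) overlapped between the groups. With limma 0 of the 5 tested genes passed an adjusted p of 0.05, as did 0% of all 13338 genes. At an unadjusted p under 0.05 limma had 1 of the 5 (Cd44), against 6.09% of all genes tested.

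Without HBOT replicate 2 the difference of Cd44 was 0.48 (SE 0.13, adjusted p = 0.657 by limma) and that of Tnfaip6 was 0.84 (SE 0.25, adjusted p = 0.734 by limma). The remaining HBOT libraries gave Pgr, Has2, Ptx3 and Sult1e1 differences of -0.0040, 0.03, 0.02 and 0. Those of Vcan, Ptgs2, Snap25 and Edn2 were 0.18, 0.10, 0.08 and -0.12. Ptgs2, Tnfaip6 and Cd44, 3 of the 10 genes, had all 3 HBOT libraries above all 3 CTX libraries, which was so for 3.78% of entries, and 0 had them all below, against 5.55% of entries. With HBOT replicates 1 and 3 alone it was again those 3 genes, against 8.8% of entries, and 0 of the 10 genes had them both below CTX, against 8.27% of entries.

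**Figure D3:**
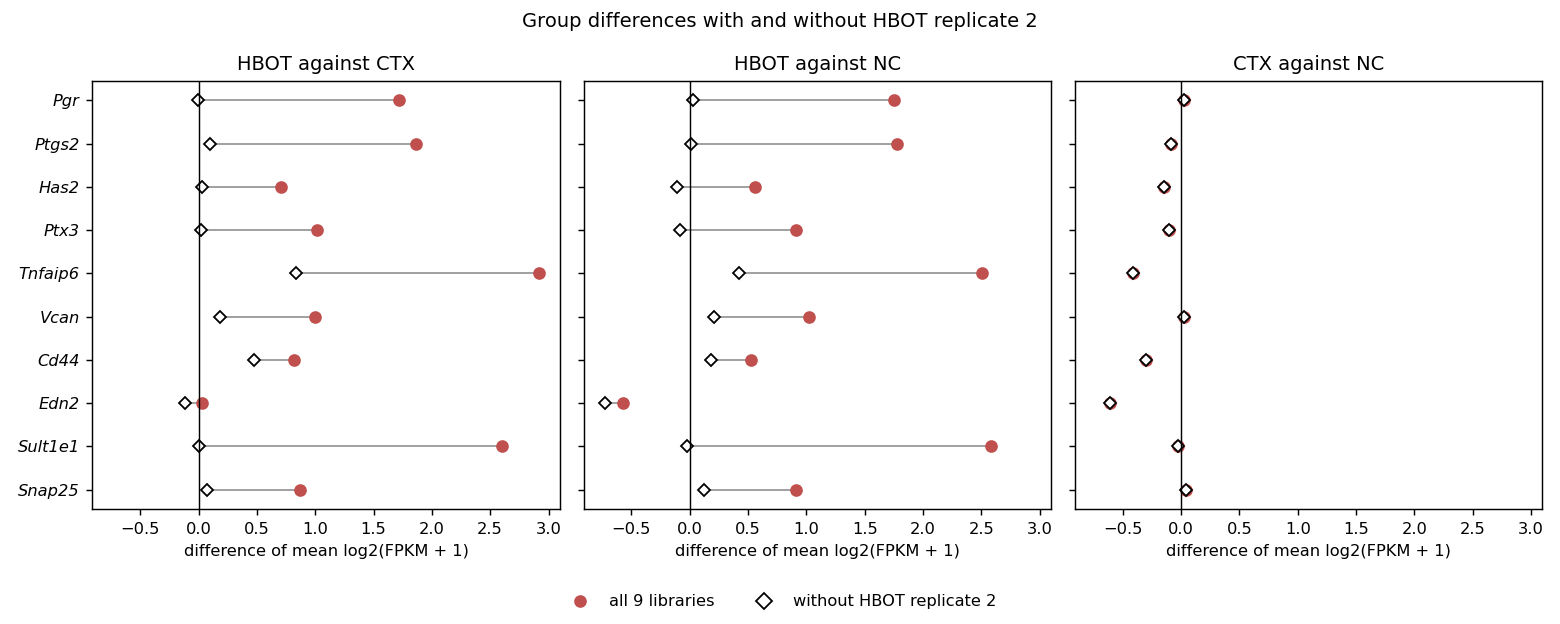
Difference of mean log2(FPKM + 1) for each of the 10 genes in the 3 comparisons, with all 9 libraries (red circles) and without HBOT replicate 2 (open diamonds). In the comparisons with HBOT most diamonds fall back to near 0, while Tnfaip6 (0.84) and Cd44 (0.48) stay above it against CTX and Edn2 (-0.73) stays below it against NC. Tnfaip6 passed the filter through the HBOT libraries, so its values support no difference by themselves.

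The comparison of HBOT with NC sets the combined treatment against control ovaries. Cd44 averaged 8.80 ± 4.36 FPKM in HBOT and 5.46 ± 0.774 FPKM in NC (SD, n = 3 each), a difference of 0.52 (SE 0.26, adjusted p = 0.464 by limma). Tnfaip6 differed by 2.501 (SE 1.42, adjusted p = 0.499) and Vcan by 1.02 (SE 0.58, adjusted p = 0.498), both by limma. Without HBOT replicate 2 these 3 differences were 0.18, 0.42 and 0.21. With limma 0 of the 5 tested genes passed an adjusted p of 0.05, as did 0% of all genes, and 0 of the 5 had an unadjusted p under 0.05, against 11.9% of all genes. HBOT replicates 1 and 3 lay below all 3 NC libraries for Has2 and Edn2, 2 of the 10 genes, as for 10.8% of entries, and above them for Snap25, as for 20.8%. For Edn2 HBOT replicate 1 (0.817 FPKM) and NC replicate 1 (0.822 FPKM) were nearly equal. Has2 and Snap25 were under 1 FPKM in all of these libraries. With all 3 HBOT libraries 0 of the 10 genes lay below NC, against 7.69% of entries.

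CTX against NC sets the drug against control ovaries, and HBOT replicate 2 enters it only through the shared spread. Cd44 averaged 4.24 ± 0.389 FPKM in CTX and 5.46 ± 0.774 FPKM in NC (SD, n = 3 each), a difference of -0.30 (SE 0.26, adjusted p = 0.871 by limma). Tnfaip6 averaged 0.412 ± 0.0831 FPKM in CTX and 0.940 ± 0.622 FPKM in NC (-0.41, SE 1.42, adjusted p = 0.989 by limma), and without NC replicate 2 the difference was -0.17. Vcan (0.02, SE 0.58) and Ptx3 (-0.10, SE 0.70) overlapped, and Pgr (0.03) and Has2 (-0.14), which were not tested, overlapped too.

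With limma 0 of the 5 tested genes passed an adjusted p of 0.05 in CTX against NC, as did 0% of all genes, and 0 of the 5 had an unadjusted p under 0.05, against 7.98% of all genes. For Ptgs2, Tnfaip6 and Cd44, 3 of the 10 genes, all 3 CTX libraries lay below all 3 NC libraries, as for 6.49% of entries. This comparison and that of HBOT with CTX share the 3 CTX libraries, so a low CTX library moves both. Without HBOT replicate 2 the standard error of Cd44 was 0.12 and its adjusted p 0.275 by limma. In 0 of the 10 genes did all 3 CTX libraries lie above NC, as for 11.2% of entries.

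**Figure D4:**
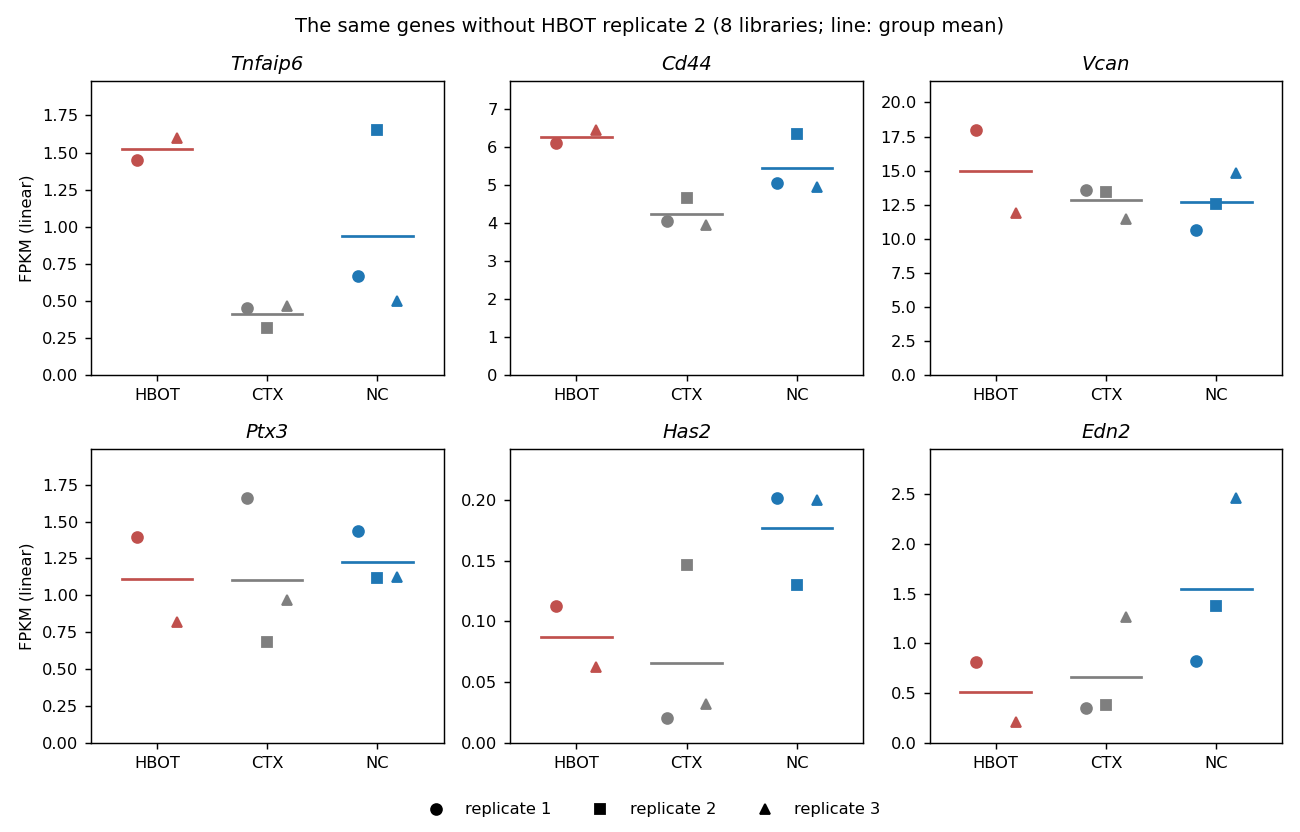
FPKM on linear axes of 6 genes in the 8 libraries other than HBOT replicate 2, with HBOT, CTX and NC from left to right and a line at the group mean (2 HBOT, 3 CTX and 3 NC libraries). The CTX points of Tnfaip6 and Cd44 lie below those of both other groups, while those of Vcan and Ptx3 overlap with them.

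The other genes of these pathways were read from 6 lists of 112 genes, of which 110 were in the table and 82 passed the filter. With limma 0 of them passed an adjusted p of 0.05 in any comparison. Among all 13338 genes tested, 19.5% were highest and 44.1% lowest in HBOT replicate 2, and the counts of each list are to be read against these shares and those over all entries (18.5% and 33.1%). By group, the luteinizing hormone receptor gene Lhcgr, at the head of the pathway, was at 73.5, 37.3 and 61.3 FPKM in HBOT, at 64.9, 112.4 and 178.1 FPKM in CTX, and at 107.1, 124.8 and 25.4 FPKM in NC. The EGF-like growth factor genes Areg and Ereg, which carry the signal to the cumulus cells, were at 145.1 and 360.7 FPKM in HBOT replicate 2 and at no more than 0.481 and 0.964 FPKM in the other 8 libraries. The transcription factor gene Cebpb, active in granulosa cells at ovulation, was at 110.3 FPKM in HBOT replicate 2, against 35.2 to 77.9 FPKM elsewhere.

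Of 24 genes of progesterone signalling and ovulatory transcription, 11 were highest in HBOT replicate 2, and 5 of these passed the 10-fold mark (Il6, Adcyap1, Areg, Ereg and Btc). Lowest there were 5 of the 24, against 33.1% of all entries and 44.1% of all genes tested. They were the membrane progesterone receptor components and receptors Pgrmc1, Pgrmc2, Paqr7 and Paqr8, and the nuclear receptor Nr5a2. The membrane receptor gene Paqr5 was not among them. Of the 18 tested, 9 were higher and 9 lower in HBOT than in CTX (median log2 difference 0.0009, against -0.07 over all genes tested). Zbtb16, a zinc finger transcription factor gene, had the smallest p of all listed genes in both HBOT comparisons: it averaged 1.89 ± 0.423 FPKM in HBOT and 0.856 ± 0.559 FPKM in CTX (0.67, SE 0.22, adjusted p = 0.710 by limma). Against 0.410 ± 0.113 FPKM in NC the difference was 1.03 (SE 0.22, adjusted p = 0.243 by limma), with HBOT replicate 2 (2.17 FPKM) beside HBOT replicate 1 (2.10 FPKM). Zbtb16 reached 1 FPKM in the 3 HBOT libraries and CTX replicate 1 only, so it entered the tested genes through the group where it was high, and these values support no difference by themselves. Rgcc, a regulator of the cell cycle, was at 62.1 ± 16.0 FPKM in CTX and 120.7 ± 12.2 FPKM in NC (-0.97, SE 0.41, adjusted p = 0.612 by limma).

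Among 21 prostaglandin enzymes, transporters and receptors, 5 were highest in HBOT replicate 2 and 6 were lowest there, counts near those shares. The synthase gene Ptges, which turns the PTGS2 product into prostaglandin E2, was expressed in all libraries, at 44.8, 64.2 and 54.4 FPKM in HBOT, at 64.3, 42.6 and 36.8 FPKM in CTX, and at 29.9, 47.1 and 46.2 FPKM in NC. Of the prostaglandin E2 receptors, Ptger4 was at 2.76, 9.92 and 2.66 FPKM in HBOT, above all CTX (1.33 to 2.57) and NC libraries (1.19 to 1.66). Its differences were 0.92 against CTX (SE 0.39, adjusted p = 0.710) and 1.11 against NC (SE 0.39, adjusted p = 0.365), both by limma, and 0.40 and 0.59 without HBOT replicate 2.

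Ptger2, the cumulus receptor for prostaglandin E2, overlapped between groups at 3.37 to 6.21 FPKM. Hpgd, which breaks prostaglandins down, was at 13.53 FPKM in HBOT replicate 2 and at 18.4 to 39.2 FPKM elsewhere. Ptgfr, the receptor of prostaglandin F in luteal cells, averaged 38.7 ± 26.3 FPKM in CTX and 111.6 ± 8.50 FPKM in NC (-1.74, SE 0.62, adjusted p = 0.528 by limma). Ptgfr and Lhcgr are also luteal markers, and the other 3 luteal markers (Akr1c18, Parm1 and Sfrp4) summed to 636.9, 1110 and 3457 FPKM in HBOT, 465.9, 337.3 and 726.1 FPKM in CTX, and 3173, 3030 and 2621 FPKM in NC. Their sums were thus lower than NC in all 3 CTX libraries and spread widely in HBOT, and the part of luteal tissue in the level of Ptgfr was not tested. Tbxa2r, the thromboxane receptor gene, was at 1.09 ± 0.584 FPKM in HBOT and 2.66 ± 0.866 FPKM in CTX (-0.82, SE 0.28, adjusted p = 0.710 by limma). Of the 18 tested, 11 were higher and 7 lower in HBOT than in CTX (median 0.05, against -0.07 over all genes tested).

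Of 27 genes of hyaluronan and the cumulus matrix, 7 were highest in HBOT replicate 2 and 6 were lowest there, against 18.5% and 33.1% of all entries. The second hyaluronan synthase gene Has1, named after its values were seen, was at 34.7 FPKM in HBOT replicate 2 and at most 0.143 FPKM elsewhere, above Has2 (3.43 FPKM) in that library. The versican-cleaving protease gene Adamts1, a target of the progesterone receptor in mouse, was at 9.24, 39.0 and 6.38 FPKM in HBOT, at 5.07, 8.25 and 5.36 FPKM in CTX, and at 11.4, 9.59 and 22.3 FPKM in NC. All 3 CTX libraries lay below NC for Adamts1 (-1.03, SE 0.58, adjusted p = 0.729 by limma).

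The heavy chain gene Itih2, whose protein is a substrate of TNFAIP6, averaged 14.2 ± 2.57 FPKM in HBOT and 6.45 ± 0.766 FPKM in NC (1.02, SE 0.23, adjusted p = 0.245 by limma). Itih5, of the same family, was at 28.9 FPKM in HBOT replicate 2, against 38.7 to 69.1 FPKM elsewhere, and the hyaluronan link protein gene Hapln1 was under 0.5 FPKM in all libraries. Of the 14 matrix genes tested, 9 were higher and 5 lower in HBOT than in CTX (median 0.10, against -0.07 over all genes tested).

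Around Edn2, the endothelin receptor gene Ednra was at 21.1, 29.2 and 19.9 FPKM in HBOT, at 22.6, 16.1 and 16.4 FPKM in CTX, and at 16.5, 15.5 and 20.2 FPKM in NC, while Ednrb was at its lowest, 3.23 FPKM, in HBOT replicate 2. Both receptors overlapped between all groups, and 2 of the 7 endothelin genes were highest in HBOT replicate 2. Around Snap25, 3 of 20 exocytosis genes were highest and 11 lowest in HBOT replicate 2, against 19.5% and 44.1% of all genes tested, the lowest ones including the SNARE partner gene Stx1a (10.2 FPKM, against 15.0 to 27.6 FPKM elsewhere). The SNARE gene Vamp2 averaged 61.7 ± 10.3 FPKM in HBOT and 77.2 ± 1.10 FPKM in CTX (-0.33, SE 0.13, adjusted p = 0.710 by limma), and without HBOT replicate 2 the difference was -0.20. Cplx1, a regulator of SNARE fusion, averaged 0.948 ± 0.770 FPKM in HBOT, 1.33 ± 0.910 FPKM in CTX and 3.86 ± 0.724 FPKM in NC. Cplx1 was thus lower than NC in all 3 HBOT libraries (-1.38, SE 0.33, adjusted p = 0.267) and all 3 CTX libraries (-1.12, SE 0.33, adjusted p = 0.424), by limma in comparisons that share the NC libraries. It passed the filter through the 3 NC libraries, since HBOT and CTX had 1 library each at or above 1 FPKM. These values of Cplx1 thus support no difference by themselves. Of 11 genes of oestrogen sulfation found, 1 was highest and 4 were lowest in HBOT replicate 2, and 0 passed the 10-fold mark that Sult1e1 passed.

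**Figure D5:**
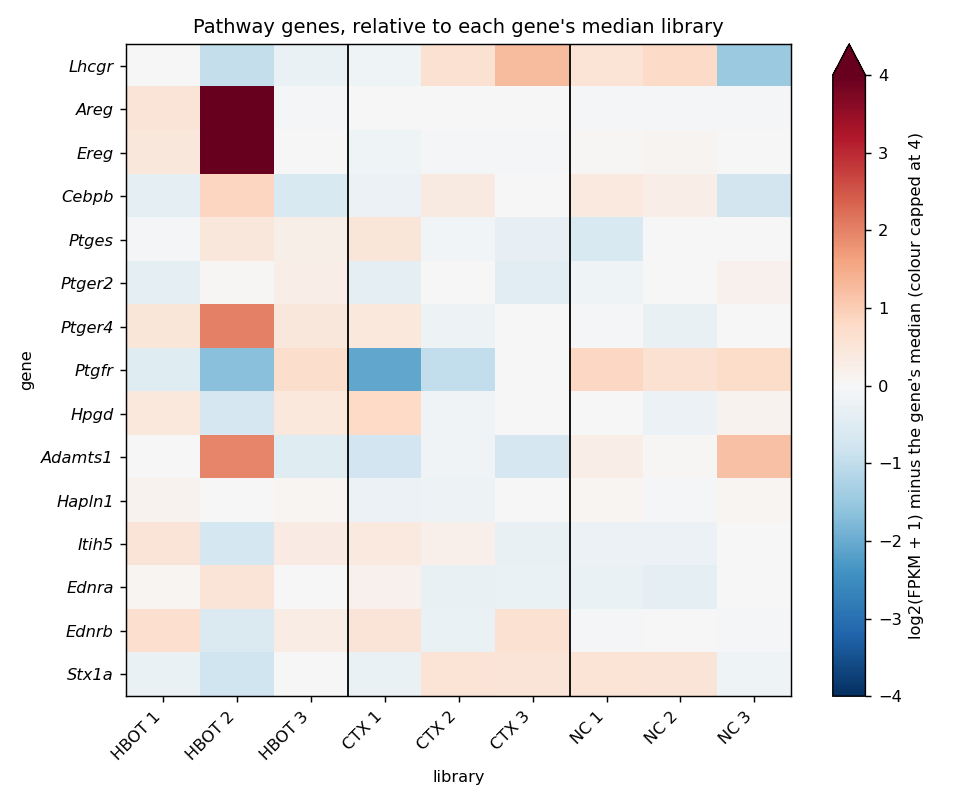
Pathway genes that act on the products of the 10 genes or upstream of them, 1 row each. The 9 libraries run from left to right as HBOT, CTX and NC. Colour gives log2(FPKM + 1) minus the median over the libraries of that gene. The column of HBOT replicate 2 is dark red for Areg and Ereg, red for Ptger4 and Adamts1 and blue for Ptgfr, and Ptges and Ptger2 are pale throughout.

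The genes whose pattern over the 9 libraries was most like Pgr were Ereg, Tnfrsf13c, Serpinb2, Areg and Npy, each with a Pearson correlation of 0.998 on log2(FPKM + 1), among 8315 named genes that reach 10 FPKM in a library. That value rests on HBOT replicate 2, since the other 8 libraries lay near 0 in all of them. For Cd44 the most alike gene was Plat, which encodes tissue plasminogen activator, with a correlation of 0.99 over the 9 libraries and of 0.96 over the 8 without HBOT replicate 2. Plat was at 86.0 FPKM in HBOT replicate 2 and at 11.9 to 28.9 FPKM elsewhere. The next most alike over 9 libraries were Pdzrn3, Noc3l, Ptprn and Ier3, and over 8 they were Rabgap1, Wwp2, Slc18b1 and Inafm2. Plat was thus the 1 gene of the 5 on both lists for Cd44. For Vcan the lists were Dnajb6, Sfr1, Tac1, Fam110c and Mapk1ip1l over 9 libraries and Rfx5, Mical3, Mfap3, Fbn1 and Rhot1 over 8, with 0 genes on both. With 8 libraries and 8315 candidates, high correlations are found for any gene, and these are a description.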

How the data were processed

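The authors deposited 1 table of FPKM, with 22544 entries and a column for each of 9 libraries (0 columns unmatched). Per the submitters' processing notes, fastp 0.23.4 and build GRCm39 (mm39) were used. No source used here names the aligner, the counting program, its use of strand or the annotation. The FPKM sums ranged from 394046 to 420058. Read depth is unknown, so the spread between libraries is the one guide to precision. Per the annotation GENCODE M21, Has2 is overlapped by the antisense gene Has2os, Vcan by Gm4117, and Ptx3 by Veph1, so their reads may be mixed.

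Values were taken as log2(FPKM + 1). The 13338 genes that reached 1 FPKM in 3 or more libraries were fitted in limma 3.58.1 (R 4.3.3) over all 9 libraries (eBayes with trend), with Benjamini and Hochberg adjustment. The 5 genes below the filter have group differences and exact permutation tests (scipy 1.17.1). The settings varied were the pseudocount (0.1), the filter (none, or 5 FPKM), TPM and median of ratios scaling, 2 groups only, a replicate block, library weights, and libraries left out with the tested genes kept. The 10 genes, the lists and the markers were chosen with earlier results of these data known. Named pathway genes are the 3 with the smallest p per comparison and 16 genes acting on products of the 10 genes or upstream. Of these 16 genes, 15 were found in the table. The 5 most alike genes of Pgr, Vcan and Cd44 are also named, and others were named after their values were seen.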

Additional observations from a re-analysis of the deposited data

How the results depend on the processing

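Of the 10 genes 0 were called in any of the 3 comparisons under any alternative run, with or without the replicate block. Pgr, Ptgs2, Has2, Sult1e1 and Snap25, below the filter, were tested only in the run with no filter, so elsewhere they could not be called. Over all genes tested, the 0 calls of HBOT against CTX became 1 with no filter, 5 with library weights and 2 when CTX replicate 1 and HBOT replicate 2 were both left out, and 0 to 1 with 1 library left out. Those of HBOT against NC became 1 with no filter and 181 with library weights, and 0 to 3 with 1 library left out (3 without HBOT replicate 3). Those of CTX against NC became 31 in a fit of the 2 groups only, 123 with library weights and 16 without both libraries, and 0 to 9 with 1 library left out (8 without HBOT replicate 2 and 9 without HBOT replicate 3). With the replicate block the count was 0 in each comparison, and it was not used as the main fit because the labels do not tie the numbers to a shared animal or batch and 2 of 9 same-numbered pairs had a correlation of deviations over 0.1. All 6 same-numbered pairs with an HBOT library were positive (0.031 to 0.109), against 3 of 12 pairs with different numbers (-0.129 to 0.05). Deviations from a group mean sum to 0, so positive same-numbered pairs force negative values among the others, and these counts are not independent. Between CTX and NC the same-numbered pairs ran from -0.287 to 0.156, so the libraries did not all correlate best with their own number.

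Changes of sign occurred where differences were small or rested on HBOT replicate 2. For genes below the filter, Pgr in HBOT against CTX was -0.004 without HBOT replicate 2. In HBOT against NC without that library, Has2 was -0.11 and Sult1e1 was -0.024. Pgr in CTX against NC was -0.025 without CTX replicate 3 and -0.0026 without NC replicate 1. Edn2 in HBOT against CTX was -0.027 with library weights, -0.034 without HBOT replicate 1, -0.12 without HBOT replicate 2, -0.096 without CTX replicate 1, -0.080 without CTX replicate 2 and -0.25 without both libraries (range with 1 library left out -0.12 to 0.28). Ptx3 in HBOT against NC was -0.087 without HBOT replicate 2, alone or with CTX replicate 1 (range -0.087 to 1.51), and in CTX against NC 0.043 without CTX replicate 2. Vcan in CTX against NC was -0.013 with TPM, -0.032 with median of ratios, -0.020 without CTX replicate 1 (with or without HBOT replicate 2), -0.011 without CTX replicate 2 and -0.086 without NC replicate 1 (range -0.086 to 0.13). With a filter of 5 FPKM Ptx3, Tnfaip6 and Edn2 were not tested. Unknown depth limits the values under 1 FPKM most. For the pathway genes, leaving out libraries was added after the data were seen, as differences with no test.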
